A study of Strongylocentrotus purpuratus with 17 samples.

Results

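The regulatory elements called in purple sea urchin (Strongylocentrotus purpuratus) embryos at 20 h were set against those called at 8 h. An element is a stretch of the genome that the classifier dREG marks as a promoter or enhancer from nascent transcripts. Every element of both lists entered the comparison, 37796 at 20 h and 56158 at 8 h, of 128949 listed in the series over 4 stages. A 20 h element was kept if it overlapped an 8 h element by at least 1 bp on the same scaffold, and new otherwise. An 8 h element was kept by the same rule, and otherwise lost. What the 12 h list showed did not enter the classes.

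The series measured nascent transcription by PRO-seq in 17 libraries, and 2 of its stages are compared here. The 20 h list pools 5 libraries of 4 biological replicates, which the titles mark as earlier samples taken through the analysis again. The 8 h list pools 2 libraries of 1 biological replicate. Both groups are labelled genotype Wild and were grown at 15 °C as whole embryos. The tissue field names the 8 h hatching blastula for libraries of other stages as well, so stages were taken from the titles. Each stage has 1 pooled list without scores, so there is no spread between replicates, no test was possible and the read depth behind an element is unknown. A difference in stage therefore cannot be told apart from a difference in depth or between the sets of libraries. In whole embryos, fewer cells using an element and less transcription per cell cannot be told apart either.

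PRO-seq lets engaged RNA polymerases extend their transcripts by labelled nucleotides in isolated nuclei, so it reports transcription as it happens and not RNA that has accumulated. Promoters and active enhancers both start short transcripts in opposite directions, and dREG reads that pattern. In the sea urchin the earlier of these stages is a hollow blastula in which embryonic territories are being set up. By the later one, skeletogenic cells, other mesoderm, endoderm and ectoderm each run their own gene regulatory programme.

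Most 20 h elements had already been called at 8 h, and most 8 h elements were not called at 20 h. Of the 20 h elements 23143 were kept, 61.2% (95% Wilson interval 60.7 to 61.7), and 14653 were new. Of the 8 h elements 22930 were kept, 40.8% (40.4 to 41.2), and 33228 were lost. These intervals, like the others below, cover counting error only. On the 21 scaffolds that carry placed genes, 58.7% of 20 h midpoints lay inside an 8 h element, while 8 h elements covered 4.65% of those scaffolds. In the other direction, 39.0% of 8 h midpoints lay inside a 20 h element, with 3.13% covered. When the 8 h list was cut to as many of its widest elements as the 20 h list holds, the shares were 52.6% of the 20 h list and 51.6% of the 8 h list. Since nearly all overlaps join 1 element with 1, equal list lengths by themselves make the 2 shares nearly equal.

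New and lost elements were alike in width, and both were narrower than the kept ones. The median width was 560 bp for new elements (quartiles 490 to 670), against 700 bp for kept elements as called at 20 h (540 to 980). Lost elements had a median of 570 bp (490 to 700), against 810 bp for kept elements as called at 8 h (620 to 1110). Elements of 1 kb or wider made up 4.63% of the new ones and 23.7% of the kept ones at 20 h. At 8 h they were 5.20% of the lost ones and 33.4% of the kept ones. A wide element has more bases in which to meet another, so width and being kept are linked by construction.

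The share kept climbed with width in both lists. Of 20 h elements under 500 bp 47.1% were kept, of those from 500 to under 750 bp 53.0%, from 750 to under 1000 bp 73.7%, from 1000 to under 1500 bp 88.0%, and of 1500 bp or more 94.3%. The same width classes at 8 h gave 15.8%, 30.8%, 55.2%, 79.2% and 91.4%. The lists thus differed most among the narrowest elements and little among the widest. The widest new element, 2140 bp, lay in the gene LOC592113 (NW_022145615.1:2180831-2182970) and the widest lost one, 2770 bp, in LOC105446783 (NW_022145601.1:32653571-32656340). The widest kept element was 2950 bp at 20 h, in LOC577764, and 3590 bp at 8 h, in LOC115929535.

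**Figure D1:**
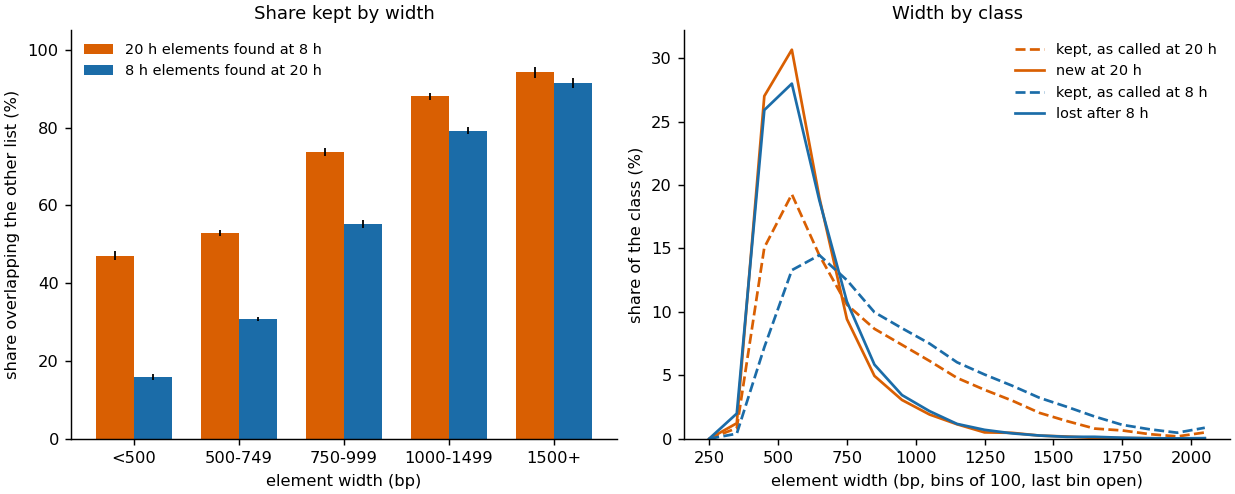
Left, share of elements overlapping the other list (%) by element width (bp), with bars for 20 h and 8 h elements and 95% Wilson intervals (counting error only); the bars climb from 47.1% to 94.3% at 20 h and from 15.8% to 91.4% at 8 h. Right, share of each class (%) by width in bins of 100 bp; the new and lost curves peak together below 600 bp, while both kept curves have long right shoulders.

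Kept elements were mostly narrower at 20 h than at 8 h, and sat in nearly the same place. The overlaps formed 23500 pairs, and 21719 of them joined 1 element at each stage. In those, the median width was 700 bp at 20 h and 810 bp at 8 h. The 20 h element was narrower in 65.0% of pairs, wider in 33.2% and of equal width in 1.85%, with a median difference of -80 bp (quartiles -250 to 50). Midpoints differed by a median of 70 bp, and the shared stretch was a median 75.4% of the combined one. There were 32 pairs with identical bounds. Overlaps of under 100 bp, just inside the rule, were 0.525% of pairs, and counting gaps of up to 100 bp as overlap, just outside it, gave 61.96% kept at 20 h. Pairs at gene ends had a median difference of -100 bp, pairs inside genes one of -50 bp and pairs between genes one of -80 bp. In addition, 560 elements of 8 h met several of 20 h, and 354 of 20 h met several of 8 h.

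**Figure D2:**
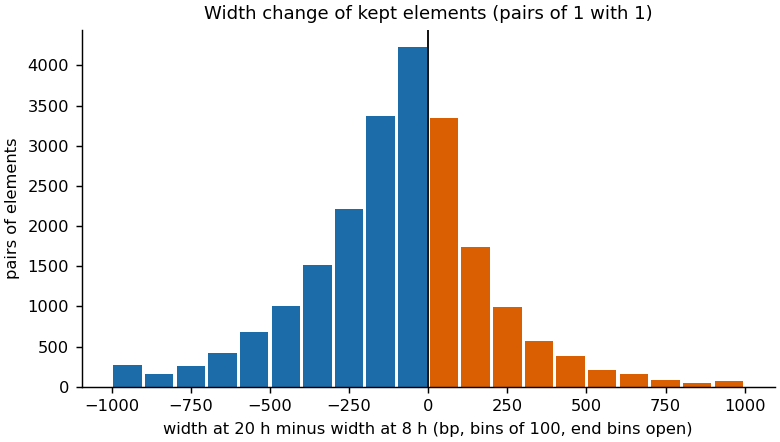
Number of pairs of kept elements by the difference in width, 20 h minus 8 h (bp, bins of 100, the end bins open; pairs of equal width fall in the first bin right of 0). Blue bars, narrower at 20 h, hold 65.0% of the 21719 pairs.

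New elements lay closer to other elements of their list than kept ones did, while lost elements lay further apart than kept ones. The gap to the nearest 20 h element had a median of 2745 bp for new elements, against 4075 bp for kept ones. The gap to the nearest 8 h element had a median of 4030 bp for lost elements, against 3140 bp for kept ones. Spacing depends on list length, and over all elements the medians were 3510 bp at 20 h and 3635 bp at 8 h. Among elements from 500 to under 750 bp only, a comparison added after seeing the data, new elements had a median gap of 2550 bp and kept ones 3980 bp, while lost ones had 4000 bp and kept ones 2900 bp. The order within each list was thus the same in this width range. By gene context, on the scaffolds with placed genes, the medians at gene ends were 4430 bp for new and 4910 bp for kept elements at 20 h. At 8 h they were 3775 bp for lost and 3510 bp for kept ones there. Between genes the medians were 2530 and 3660 bp at 20 h, and 4040 and 2920 bp at 8 h. Inside genes they were 2340 and 2835 bp, and 3970 and 2820 bp.

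Runs of elements under 2 kb apart showed the same contrast. At 20 h, 19.7% of new elements (95% interval 19.05 to 20.33) were in runs of 3 or more, against 13.8% of kept ones (13.4 to 14.2). At 8 h it was 9.41% of lost elements (9.10 to 9.73), against 12.5% of kept ones (12.1 to 12.9). Among elements at gene ends the 8 h shares were close, 9.90% of lost and 10.2% of kept ones. The 20 h shares there were 11.9% of new and 9.34% of kept ones. The longest run held 13 elements at 20 h and 10 at 8 h, and 207 runs at 20 h and 117 at 8 h had 5 or more. Most such runs mixed classes: of 1714 runs of 3 or more at 20 h, 1186 held both new and kept elements, 216 only new and 312 only kept. At 8 h, 1073 of 1798 mixed lost and kept elements, 398 held only lost and 327 only kept. The nearest neighbour of a new element was itself new in 47.3% of cases, against 34.8% for a kept element, with 38.8% of the whole list new. The nearest neighbour of a lost element was lost in 64.9%, against 48.2% for a kept element, with 59.2% of the list lost.

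New elements also stayed nearer to 8 h elements than lost ones did to 20 h elements. The nearest 8 h element was a median of 3770 bp from a new element, and 20.9% of new ones had none within 10 kb. The nearest 20 h element was a median of 9350 bp from a lost one, and 48.1% had none within 10 kb. Such distances also depend on the length of the list that is searched, and the 20 h list is the shorter one. The longest runs made of new elements held 7. One of them, at NW_022145615.1:10652241-10659860, overlapped LOC100891392 and lay beside the skeletogenic gene P16. The others were at NW_022145601.1:12538641-12547780 and NW_022145612.1:15363151-15376170, outside annotated genes. Runs of 7 lost elements were at NW_022145596.1:21065661-21074340, between genes, and at NW_022145612.1:47031211-47040130, across LOC581821 and LOC100890035. The next longest run of lost elements held 6, at NW_022145544.1:2030511-2038010, a scaffold with no placed gene.

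Gene context separated kept elements from both other classes more than it separated new from lost. Context was assigned only on the 21 scaffolds with placed genes. Every share by context therefore leaves out the other scaffolds, with 5.52% of the 20 h list and 7.36% of the 8 h list. An element was placed at a gene end if it came within 500 bp of the first or last base of a gene; both ends were used, because the gene table gives no strand and so does not tell the start. Of new elements 13.4% (12.88 to 14.02) were at gene ends, against 44.2% of kept ones at 20 h (43.6 to 44.9). Of lost elements 14.3% (13.9 to 14.7) were, against 44.7% of kept ones at 8 h (44.0 to 45.3). Gene-end windows made up 6.71% of scaffold bases. Counted by midpoint, the shares were 10.56% of new and 40.04% of kept elements at 20 h, and 10.12% of lost and 40.02% of kept elements at 8 h. Kept elements are wider, and among elements from 500 to under 750 bp, added after seeing the data, the gene-end share was 12.7% of new against 31.0% of kept elements at 20 h, and 13.6% of lost against 27.6% of kept elements at 8 h. The median distance to the nearest gene end was 5378.5 bp for new elements against 1587 bp for kept ones at 20 h, and 5042 bp for lost ones against 1605 bp for kept ones at 8 h.

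Away from gene ends, new elements were found more inside genes and lost ones more between them. Inside genes lay 47.4% of new elements (46.6 to 48.2) and 40.7% of lost ones (40.2 to 41.3). Between genes lay 39.2% of new elements (38.36 to 39.98) and 45.0% of lost ones (44.4 to 45.5). The corresponding shares of scaffold bases were 45.5% and 47.8%. Kept elements had 26.1% inside and 29.6% between genes at 20 h, and 25.9% and 29.4% at 8 h. Put the other way, 83.8% of 20 h gene-end elements were kept, 46.4% of those inside genes and 54.3% of those between genes. At 8 h it was 69.0%, 31.1% and 31.7%. From 500 to under 750 bp the order held, with 73.2% of gene-end and 41.8% of inside elements kept at 20 h, and 47.9% and 27.0% at 8 h.

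**Figure D3:**
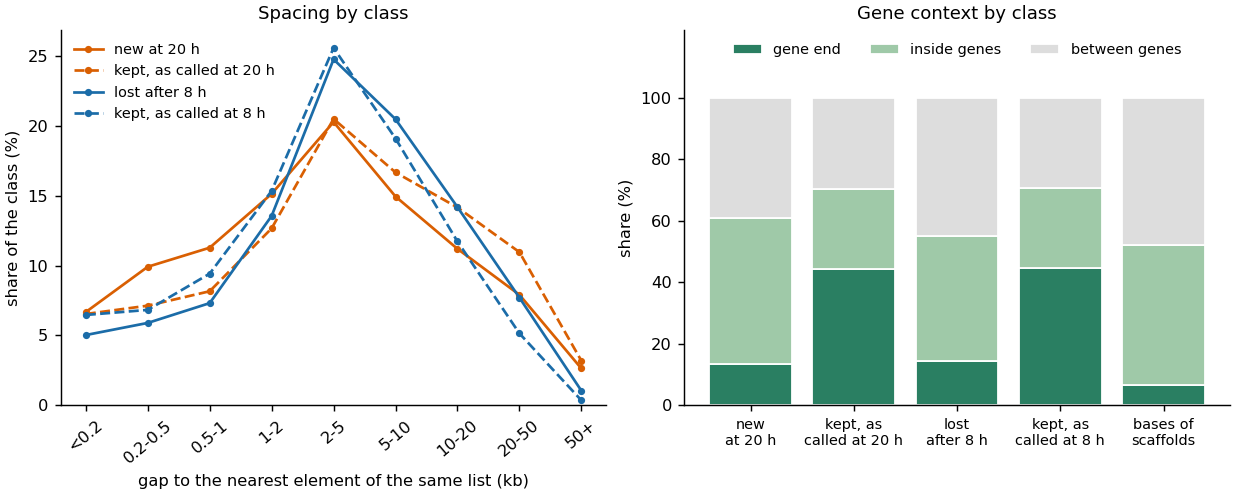
Left, share of each class (%) by the gap to the nearest element of the same list (kb); the new curve lies above the kept one at 20 h for gaps from 0.2 to 2 kb, and the lost curve below the kept one at 8 h for gaps up to 5 kb. Right, share of each class (%) at gene ends, inside genes and between genes, beside the same shares of scaffold bases; the gene-end part is 13.4% for new, 44.2% for kept at 20 h, 14.3% for lost and 44.7% for kept at 8 h, against 6.71% of bases.

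The 12 h list, a stage between, holds 30570 elements and pools 4 libraries of 3 biological replicates. Their titles mark them as earlier samples analysed again, as those of the 20 h libraries do and those of the 8 h libraries do not. Of kept elements as called at 20 h, 72.4% were also called at 12 h and of new ones 12.8%, with 49.3% over the whole 20 h list. For kept elements as called at 8 h it was 72.5% and for lost ones 20.8%, with 41.9% over the whole 8 h list. Of kept elements as called at 20 h, the 16746 called at 12 h were wide, with a median of 770 bp. On the 21 scaffolds with placed genes there were 15794 of these, and 52.3% of them lay at gene ends. The 6397 kept ones that the 12 h list did not hold had a median of 590 bp. Of the 6017 of them on those scaffolds, 23.0% lay at gene ends. Among new elements, 22.8% of those called at 12 h were at gene ends and 12.1% of those not called there. Among lost elements it was 19.9% and 12.8%. In each class, then, the elements that the 12 h list held as well were more often at gene ends.

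The balance differed between scaffolds. The number of 20 h elements per 8 h element ranged from 0.47 to 0.94 over the 21 scaffolds, with a median of 0.66. The share of 20 h elements that were kept varied little, between 57.0% and 65.1%, while that of 8 h elements ranged from 29.8% to 55.3%. Of 819 windows of 1 Mb, 57 held more elements at 20 h, 755 fewer and 7 the same number. The window with the greatest surplus, NW_022145611.1:31000001-32000000, had 111 elements at 20 h and 76 at 8 h and contains FoxA. In it, 14 of 29 protein-coding genes had more elements at 20 h and 4 fewer. The greatest deficit was at NW_022145606.1:50000001-51000000, with 36 elements at 20 h and 101 at 8 h, where 1 of 25 genes had more and 20 fewer. Over all protein-coding genes 17.2% had more and 52.7% fewer. Both windows were chosen by their numbers of elements, so the direction of these gene counts follows in part from the choice.

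Elements were then counted by midpoint in the neighbourhood of each of 24774 protein-coding genes, the gene body and 10 kb either side. The mean was 1.85 elements at 20 h and 2.55 at 8 h. More elements at 20 h were found for 17.2% of genes, fewer for 52.7%, and the same number for 7466. With the 8 h list cut to its widest elements these were 28.5% more and 32.0% fewer. That setting changes the length and the widths of the list at once, and their parts were not tested. At least 1 new element lay near 37.0% of genes and at least 1 lost one near 68.7%. New, kept and lost elements met in 5188 neighbourhoods, and 1428 held new and lost elements with none kept.

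Most genes with a gene-end element had one at both stages. Such elements were found at both stages for 38.1% of protein-coding genes, at 20 h only for 5.02% (1244) and at 8 h only for 11.4% (2815). With the 8 h list cut to its widest, the 2 single-stage counts were nearly equal, 1836 and 1896. Of the 1580 genes with 3 or more new elements, 58.8% had a gene-end element at both stages and 19.2% at 20 h only. Of the 4257 genes with 3 or more lost elements, 38.3% had one at both stages and 26.5% at 8 h only. A gene-end element at 20 h only can itself be among the new elements by which its gene was chosen. Likewise, a gene-end element at 8 h only can be among the lost elements. The shares of 19.2% and 26.5% thus depend in part on how the sets were chosen, and how far was not tested. These 2 sets have longer genes, with medians of 24.5 and 19.4 kb, against 10.2 kb over all protein-coding genes.

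Of the placed protein-coding genes 249 have a symbol other than a locus number, and gene lists were matched among those. Their members had more elements at 20 h in 30 of 99 cases and fewer in 50, beside 17.2% and 52.7% over all protein-coding genes. Over the 249 genes with a symbol 29.3% had more and 50.2% fewer, so the joined lists were close to this narrower background. Counts below are numbers of elements in the neighbourhood, and differences are 20 h minus 8 h. Where neighbourhoods of members overlap (SM50 with SM37, COLP4alpha with COLP3alpha, COLP1alpha with COLP2alpha, FGFR with FGFRL1, AMAS2 with AMAS4, SPEC1 with spec2c, H2A with H4), the same element can count for both.

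Genes of the skeletogenic mesoderm, the cells that build the larval skeleton, held a mean of 5.06 elements at 20 h and 4.0 at 8 h. Of 16 placed members 6 had more at 20 h and 6 fewer. Over gene bodies alone 4 had more and 6 fewer, and with 50 kb either side 7 and 9. With the 8 h list cut to its widest 8 had more and 3 fewer, beside 28.5% and 32.0% over all protein-coding genes. With 10 kb either side, the 6 with more were SM29, P16, SM50, PM27, SM37 and COLP4alpha. The other structural and biomineralization genes of the list had fewer or equal numbers. Fewer were found for msp130, 2 at 20 h and 3 at 8 h, SM30A, 1 and 2, and COLP2alpha, 2 and 3. COLP3alpha had 8 at either stage and COLP1alpha 3. SM29, a spicule matrix gene (NW_022145602.1:7916731-7927690), had 8 elements at 20 h and 2 at 8 h, 7 of them new, and a gene-end element at 20 h only. P16, which encodes a membrane protein of these cells (NW_022145615.1:10667000-10669900), had 7 at 20 h and 2 at 8 h. The element at its lower-numbered end was kept and was 1060 bp wide at 20 h and 480 bp at 8 h. At its other end lay a new element of 680 bp. Of the 6 new elements around it, 3 belong to the run of 7 described above, beyond 7 kb from the gene, and no element had its midpoint in the gene body at either stage.

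The spicule matrix genes SM50 and SM37 and the related PM27, looked at after their values were seen, had the same arrangement. They lie near each other on the scaffold that also carries SM29. SM50 had 6 elements at 20 h and 2 at 8 h, SM37 had 5 and 2, and PM27 had 6 and 2. Each kept a gene-end element, SM37 beside another that was lost and PM27 beside another that was new. Of their 20 h elements 4, 4 and 5 were new. COLP4alpha, a collagen gene, had 12 at 20 h and 9 at 8 h, with 7 new and 4 lost.

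Regulators of the same cells had equal or lower numbers at 20 h, each in its own way, and their difference from the structural genes was not tested. Alx1, the homeobox factor at the head of the skeletogenic programme (NW_022145603.1:14657058-14712320), had 6 elements at either stage and shared only 1 of them. The 5 new ones, 480 to 1190 bp wide, all lay inside the gene. Of the 5 lost ones, 650 to 1520 bp wide, 2 were inside it, and one of these lay at the gene end, where no 20 h element was called. The Ets factor erg had 2 elements at 20 h, both kept, and 4 at 8 h, and a gene-end element at 8 h only. The ARID factor dri had 6 at 20 h, 4 of them kept, and 8 at 8 h, the Ets factor ets1 had 6, of which 4 were kept, and 6, and the zinc-finger factor snail 1 and 2. A gene-end element at 8 h only was also found for the collagen genes COLP1alpha and COLP2alpha, with 3 at 20 h and 3 at 8 h, and 2 and 3.

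Other mesoderm genes numbered 5, 2 higher and 2 lower, with means of 6.60 elements at 20 h and 4.80 at 8 h. GATAc, which encodes a zinc-finger factor of blastocoelar cell precursors (NW_022145612.1:11500266-11556165), had the greatest surplus of all genes with a symbol, 17 at 20 h and 5 at 8 h. The 5 elements of 8 h were all kept, and 12 were new, 10 of those inside the 55.9 kb gene. The new ones were 410 to 1560 bp wide. Neither gene end carried an element at either stage. delta, which encodes the Notch ligand, had 6 at 20 h and 3 at 8 h, with 5 new and 1 kept. The pigment cell regulator gcm had 6 at either stage, 4 of the 20 h ones kept.

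Endoderm and gut genes averaged 6.25 elements at 20 h and 5.88 at 8 h, with 3 of 8 members higher and 2 lower. FoxA, a forkhead factor of the gut (NW_022145611.1:31436173-31439051), had 8 at 20 h and 1 at 8 h. The single 8 h element lay at a gene end and was kept, 740 bp wide at 20 h and 700 bp at 8 h. The 7 new ones, 470 to 1100 bp, had midpoints from 8.73 kb before the lower-numbered end of the gene to 1.42 kb past the other end. Endo16, a cell-surface protein gene of the midgut, had 4 at 20 h and 2 at 8 h with none kept. The signalling gene Wnt8 had 6 at 20 h, all kept, and 10 at 8 h. The zinc-finger gene blimp1/krox also had 6 and 10, of which 3 were new and 7 lost, and it had a gene-end element at 8 h only.

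**Figure D4:**
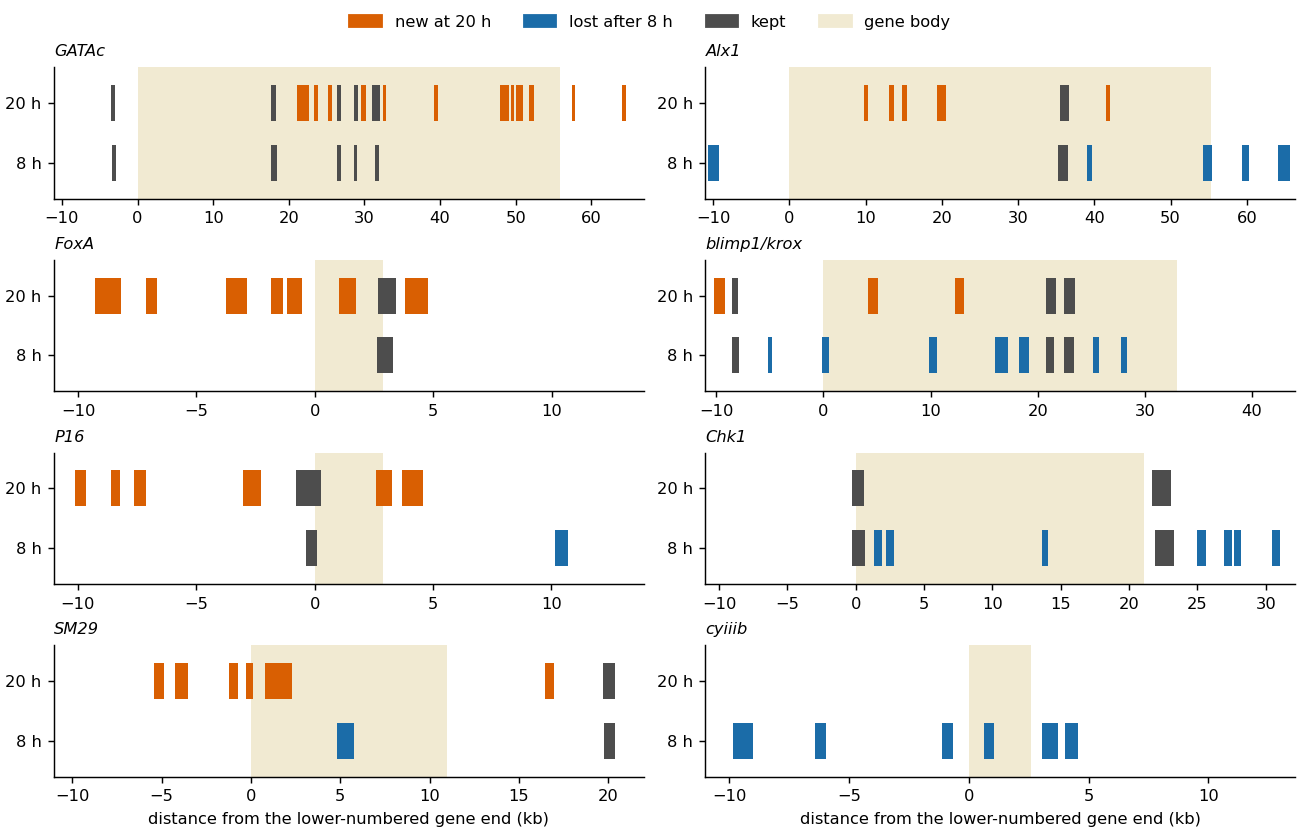
Elements at 20 h (upper row) and 8 h (lower row) around 8 genes, by distance from the lower-numbered gene end (kb), drawn to scale as new, lost or kept, with the gene body shaded. GATAc has 12 new and 5 kept elements at 20 h, and new elements lie on both sides of the kept one at FoxA and P16. Alx1 has 5 new and 5 lost around 1 kept, and cyiiib has 6 lost and nothing at 20 h.

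Ectoderm genes were split, with 7 of 18 higher and 7 lower, and averages of 4.89 at 20 h and 5.06 at 8 h. Dlx, a homeobox gene (NW_022145612.1:55287731-55304051), had 13 at 20 h and 7 at 8 h, with 7 new and 1 lost. Tbx2/3, a T-box gene, had 13 at 20 h and 10 at 8 h. cyiiib, a cytoskeletal actin gene of the aboral ectoderm (NW_022145599.1:19731083-19733676), had no element at 20 h and 6 at 8 h, including one at the gene end. spec2d, a calcium-binding protein gene of the same tissue, had 2 at 20 h and 8 at 8 h and a gene-end element at 8 h only. SPEC1, of the same family, had 4 at either stage, also with a gene-end element at 8 h only. The ectoderm list with the 8 h list cut to its widest gave 8 higher and 2 lower. Over gene bodies alone it gave 6 higher and 6 lower, and with 50 kb either side 11 and 5.

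The 4 genes of the apical plate and nervous system averaged 7.0 elements at 20 h and 5.25 at 8 h, 3 higher and 0 lower. Over gene bodies alone 1 was higher and 0 lower, and with 50 kb either side 3 were higher and 1 lower. otx, a homeobox gene, had 12 at 20 h and 8 at 8 h, and NK2.1, another, 4 and 2. FoxJ1, the forkhead factor of ciliated cells, had 8 at 20 h and 7 at 8 h and a gene-end element at 20 h only. SoxB2 had 4 at either stage.

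Across regulator families, forkhead genes had 3 of 4 higher and 0 lower, with means of 5.75 at 20 h and 3.25 at 8 h. FoxA had the widest difference of the 4, with 8 at 20 h and 1 at 8 h. With 50 kb either side 2 forkhead genes were higher and 2 lower. Over all protein-coding genes 17.2% were higher and 52.7% lower with 10 kb either side, and 17.4% and 72.9% with 50 kb. Homeobox genes had 9 of 20 higher and 8 lower, with means of 4.55 and 4.25. They had 11 higher and 1 lower with the 8 h list cut to its widest. Over gene bodies alone 6 homeobox genes were higher and 5 lower, and with 50 kb either side 10 and 8. Of the 4 Ets genes Elk had 11 at 20 h and 7 at 8 h, erg and Ets4 had fewer and ets1 the same number. Of the 3 Sox genes SoxB1 had 6 at 20 h and 5 at 8 h, and soxd1 8 and 12. The 9 signalling genes had 3 higher and 4 lower, with means of 4.44 and 5.22. Among them the TGF-beta family gene DVR1 had 1 at 20 h and 5 at 8 h and a gene-end element at 8 h only. The 8 early zygotic genes, of which SpAN is the one in no other list, had 3 higher and 4 lower. SpAN, a protease gene of the blastula, was among the higher ones with 8 at 20 h and 5 at 8 h.

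In neighbourhoods of 10 kb either side, immune genes and gamete genes had no member with more elements at 20 h. Of 8 immune and coelomocyte genes 7 had fewer, with means of 1.62 at 20 h and 3.62 at 8 h. AMAS3, an amassin gene of coelomocyte clotting, had 1 at 20 h and 5 at 8 h, though with 50 kb either side its difference turned to 2 more at 20 h. Lower too were bf, a complement factor B gene, with 3 at 20 h and 6 at 8 h, and SRCR12, a scavenger receptor gene, with 3 and 6. SRCR12 and AMAS2 had a gene-end element at 8 h only, and no member had one at 20 h. Of 13 gamete genes 10 had fewer, with means of 2.77 at 20 h and 5.00 at 8 h. REJ8, of the sperm receptor family for egg jelly, had 5 at 20 h and 10 at 8 h, all 5 kept. vasa, the germline helicase gene, had 3 at 20 h and 7 at 8 h, and REJ3 4 and 8. Bindin, the sperm protein gene BND, and REJ9 had a gene-end element at 8 h only, and REJ5 at 20 h only. With the 8 h list cut to its widest, 1 immune gene had more and 7 fewer, and 2 gamete genes had more and 9 fewer. Over gene bodies alone 1 immune gene had more and 5 fewer, and 2 gamete genes had more and 8 fewer. With 50 kb either side these were 1 and 7, and 2 and 10. Over all protein-coding genes 12.4% had more and 31.7% fewer over gene bodies alone, and 17.4% and 72.9% with 50 kb either side. The gamete count with 50 kb either side was thus near the share over all genes.

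Housekeeping lists were small and mostly lower. Of 4 histone genes 3 had fewer and 0 more, but 1 fewer and 1 more with the 8 h list cut to its widest, and 1 fewer over gene bodies alone. H2A, H4 and H2B-1 had a gene-end element at 8 h only, while that of the variant H2A.F/Z was at both stages. H2A had 1 element at 20 h and 5 at 8 h, and H4 had 2 and 5. Histone genes occur in near-identical copies, so reads could be split among them. Of 3 ribosomal protein genes 3 had fewer with none new, though over gene bodies alone 1 had fewer and 1 more, and all had a gene-end element at both stages. rps14 had 4 at 20 h and 8 at 8 h. Of 4 cell cycle genes 3 had fewer. Chk1, the checkpoint kinase gene (NW_022145594.1:34604768-34625876), had the greatest deficit of all genes with a symbol, 2 at 20 h and 9 at 8 h. The 2 kept elements were 880 and 1360 bp wide at 20 h, and the 7 lost ones 490 to 640 bp.

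**Figure D5:**
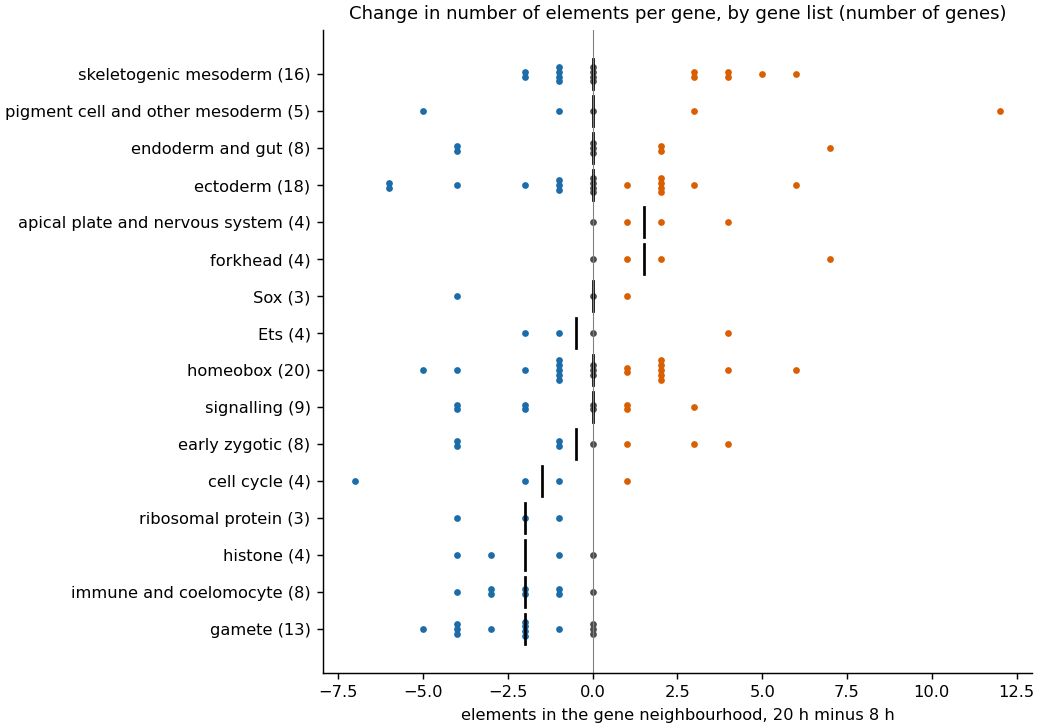
Difference in the number of neighbourhood elements, 20 h minus 8 h, for every placed gene of 16 lists (points; orange more, blue fewer, grey equal) with the list median (black bar) and the number of genes in brackets. The immune, gamete, histone and ribosomal protein lists have no point right of 0, and the apical plate and forkhead lists none left of it.

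Among the 10 symbol-bearing genes with the greatest surplus, those not yet described were Klf7, a Krüppel-like factor, with 8 at 20 h and 2 at 8 h, Sdc, the syndecan gene, with 11 and 5, SpRunt-1, a Runx factor, with 9 and 4, and FSCN1, the fascin gene, with 11 and 7. All but SM29, SpRunt-1 and GATAc of the 10 had a gene-end element at both stages. Among the 10 with the greatest deficit were also LOXL2, a lysyl oxidase-like gene, with 3 at 20 h and 9 at 8 h, TIE1/2, a receptor tyrosine kinase gene, with 4 and 10, etg with 3 and 9, and arc2 with 0 and 6. LOXL2 and TIE1/2 had a gene-end element at 8 h only. TIE1/2 was the only one of these 10 with new elements, 2 of them. The size of many of these differences depends on the window. Over the gene body alone the difference, 20 h minus 8 h, was 1 for FoxA, 1 for SM29, 0 for P16, -1 for cyiiib and -1 for spec2d. With 50 kb either side it was 20 for FoxA, 13 for SM29, 2 for SpRunt-1, -11 for cyiiib and -12 for spec2d.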

How the data were processed

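Per the labels, each deposited list holds the dREG peaks of all PRO-seq libraries of a stage on the Sp 5.0 genome. The authors' files give a scaffold, a start and an end per element, in steps of 10 bp, with no score. For the aligner, the caller's settings and the pooling of libraries, the sources used here give no details. Libraries of other groups (6 of 17) entered no comparison, and the 72 h list was read only for the number of elements in the series. Overlap, gaps and counts were computed with Python 3.11.15, pandas 2.3.3 and numpy 2.4.6, and checked on simulated lists.

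Genes came from a RefSeq table of Spur_5.0 with start and end but no scaffold or strand. Runs of at least 900 genes were placed on the scaffold whose 12 h elements met most of their gene ends, 12.3% to 28.3% against 5.12% to 8.40% on the next best. That list is not one of the 2 compared, and either of the compared lists led to the same placement of 21 of 21 runs. This placed 30064 of 33490 genes, and 256 of 288 pieces of 100 genes went to the scaffold of their run. Gene positions therefore rest on an inferred scaffold. Start sites, exons and introns were not told apart, and planned motif searches were not run, since no sequence was used here.

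The classes, gene lists and named genes were chosen with earlier results of these data known. Named were, per list of at least 3 placed genes, the 2 greatest gains and losses and members with a gene-end element at 1 stage only, the 10 symbol-bearing genes with the greatest gain and loss, and the widest elements and longest runs. The values of other list members are given beside them. One gene that the rule names is not reported here. Shares carry Wilson 95% intervals. No test was made.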

Additional observations from a re-analysis of the deposited data

How the results depend on the processing

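Leaving out a replicate was not possible with 1 pooled list per stage. No paired analysis was possible because the replicate numbers of the libraries do not appear in the lists. The lists carry no score or read number, so the depth behind narrow elements is unknown.

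The share kept, 61.2% of the 20 h list and 40.8% of the 8 h list, was 53.1% and 35.8% when 50% of both elements had to overlap, 58.8% and 38.3% by midpoint, 61.96% and 41.3% with gaps of up to 100 bp, and 52.6% and 51.6% with the 8 h list cut to its widest elements. On the 21 scaffolds the 8 h share was 41.5%. Overlap of 50% of both elements put the median width at 720 bp for kept elements at 20 h and 580 bp for lost ones, and the gene-end share at 18.5% for new and 16.7% for lost elements.

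Median spacing by midpoint was 3400 bp for new, 4875 bp for kept at 20 h, 4705 bp for lost and 3995 bp for kept at 8 h. With elements 100 bp or less apart joined it was 2950, 4390, 4210 and 3380 bp. Elements from 500 to under 750 bp, added after seeing the data, gave 2550 bp for new and 2900 bp for kept at 8 h. For the same 4 classes the gene-end share was 11.04%, 41.8%, 11.01% and 42.5% with windows of 250 bp, 18.7%, 48.2%, 20.1% and 48.4% with 1000 bp, 10.56%, 40.04%, 10.12% and 40.02% by midpoint, and 12.7%, 31.0%, 13.6% and 27.6% for elements from 500 to under 750 bp. The order of classes within each list held in all of these.

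Genes with fewer elements at 20 h numbered 13055, 7848 over gene bodies alone and 18052 with 50 kb either side. Those were 52.7%, 31.7% and 72.9% of protein-coding genes. With the 8 h list cut to its widest, 7062 genes had more, against 4253, and 7920 fewer. Of the 20 differences for the genes with the greatest gain or loss, 17 changed in size over gene bodies alone, 17 with 50 kb either side besides 1 that turned, and 15 with the cut list. AMAS3 turned, to 2 more at 20 h with 50 kb either side, and the cause was not tested. P16 had a difference of 0 over its gene body. Of the 32 counts over gene lists, 22 were within 1.5 times of their value with gene bodies alone, 22 with 50 kb either side and 18 with the cut list.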

Other observations

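Genes of non-coding RNAs were matched by the gene type of the annotation. Fewer neighbourhood elements at 20 h were found for 69.1% of tRNA, 58.6% of snRNA, 49.8% of long non-coding RNA, 43.4% of microRNA and 27.7% of snoRNA genes, beside 52.7% of protein-coding genes. For protein-coding genes, 5.02% had a gene-end element at 20 h only and 11.4% at 8 h only. Of 954 placed tRNA genes, 372 had a gene-end element at both stages, 26 at 20 h only and 251 at 8 h only. Of 256 snRNA genes, which encode RNAs of the spliceosome and related particles, 37 had one at both stages, 5 at 20 h only and 34 at 8 h only. Of 3231 long non-coding RNA genes, 418 had one at both stages, 125 at 20 h only and 479 at 8 h only. Of 53 microRNA genes, 7 had one at both stages, 4 at 20 h only and 4 at 8 h only, and of 101 snoRNA genes 3, 1 and 5. tRNA and snRNA genes come in near-identical copies and clusters, so 1 element can serve several genes and reads can be split among copies.

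Genes with a symbol whose neighbourhood held new and lost elements but no kept one were CHRD, CVp18, Endo16, Gpc-5, MTB1, SFK1, abcb4, dlp, eh2, pde5 and sia8, named here after their values were seen. At MTB1, a metallothionein gene, 1 new element at a gene end stood in place of 1 lost element elsewhere. At sia8 a gene-end element was called at either stage, yet the 2 did not overlap. At dlp 1 new element at 20 h stood against 4 lost ones of 8 h, and its gene-end element was at 8 h only.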
